A study of Mus musculus with 6 samples.

Results

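The proteasome genes of mouse alveolar macrophages were examined in libraries with a myeloid knockout of Rack1 and in control libraries. The members were taken by a name rule, chosen with earlier results of these data known. It covered every gene called Psma, Psmb, Psmc, Psmd, Psme or Psmg followed by a number, 47 of the 26428 genes in the deposited table. Psmc3ip and Psme2b, whose names carry further letters, and 2 pseudogenes were left out. Alveolar macrophages are phagocytes that live in the air spaces of the lung, and RACK1 is a ribosome-bound scaffold protein. The genotype is written Rack1F/- for the 3 control libraries and Rack1{delta}Mye for the 3 of the knockout. All 6 came from lung without a stated treatment, and the strain, age and sex of the animals and the Cre driver are not given in the sources used here. The labels do not say whether each library is from its own animal, and p-values therefore measure only the spread between these samples.

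The proteasome is the protease that degrades ubiquitin-tagged proteins. Its core is a barrel of alpha and beta rings, in which Psmb5, Psmb6 and Psmb7 encode the catalytic beta subunits. The regulatory particle on its ends recognises, unfolds and feeds in substrates through ATPases (Psmc genes) and non-ATPase subunits (most Psmd genes). Interferon-gamma induces the alternative catalytic subunits Psmb8, Psmb9 and Psmb10, which take the places of Psmb5, Psmb6 and Psmb7 in newly built cores and form the immunoproteasome, and the activator subunits Psme1 and Psme2. Immunoproteasomes favour the release of peptides that fit class I histocompatibility molecules, and white blood cells carry them without infection. The name rule also takes in genes that are not subunits, namely the assembly chaperone genes Psmg1, Psmg2, Psmg3, Psmg4, Psmd5, Psmd9 and Psmd10.

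Estimated counts summed to 51894849 to 66163430 units per library. Levels are given as CPM, a gene's count relative to the total of its library, scaled with TMM, a factor that aligns libraries on the bulk of their genes. Levels of different genes are set against each other only in FPKM, which here is per length of all annotated exon bases of a gene. These differ between genes, with 899 bases for Psmb5 and 3421 for Psmb7 in GENCODE M21. FPKM levels of different genes therefore depend in part on the annotation. Rack1 itself had 77.3, 83.5 and 81.1 CPM in the control and 38.6, 38.2 and 34.1 CPM in the knockout libraries (log2 fold change -1.12, edgeR adjusted p = 0.000207). The 12 alveolar macrophage markers summed to 77650 to 153700 CPM in control and 89220 to 159000 CPM in knockout, most of it Chil3. Within that list Car4 and Marco were higher in knockout (log2 fold changes 2.52 and 2.11) and Cidec, Krt79 and Siglecf lower (-1.52, -0.93 and -0.67; edgeR adjusted p = 7.10e-05 to 0.0128 for the 5), and the other 7 were not called. The T cell list summed to 381 to 526 CPM in control and 417 to 700 CPM in knockout, nearly all of it Cd2, with Cd3e at 0.116 to 0.700 CPM over the 6 libraries. The B cell list summed to 5.38 to 118 CPM in control and 51.8 to 70.5 CPM in knockout. Most of the B cell sum was Igkc in the 4 libraries where it was high, at 115 CPM in control replicate 3 and 48.0 to 68.6 CPM in knockout against 2.16 and 3.03 CPM in the other control libraries, and Cd79a was at 0 to 0.404 CPM. The monocyte list summed to 15.9 to 26.4 CPM in control and 26.5 to 50.6 CPM in knockout. The neutrophil list summed to 44.3 to 69.4 CPM in control and 112 to 119 CPM in knockout, most of that difference in Retnlg, which was not called (edgeR adjusted p = 0.0680). Ly6g, at 0 in every knockout library, and Ltf were called lower (edgeR adjusted p = 0.0273 and 0.00788). The lung epithelium list summed to 50.6 to 89.1 CPM in control and 49.4 to 53.8 CPM in knockout. In it Epcam was lower and Sftpa1 and Sftpc higher (log2 fold changes -2.24, 2.84 and 1.62, edgeR adjusted p = 0.000265, 0.0122 and 0.0386). The red cell list summed to 149 to 1174 CPM in control and 1097 to 1802 CPM in knockout. The part of these cells in the results below was not tested. In bulk samples, fewer cells of a type and less RNA per cell cannot be told apart.

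Most proteasome genes stood at nearly the same level in knockout and control. Of the 47 members 46 were tested, and 4 fell in knockout: the catalytic subunit gene Psmb7, the immunoproteasome gene Psmb9, the lid gene Psmd3 and the core alpha gene Psma2 (quasi-likelihood test of edgeR, p under 0.05 after Benjamini-Hochberg adjustment over all genes tested). These 4 are 8.70% of the members tested, against 6.01% of all genes called lower and 11.9% called in either direction. None of the 46 was called higher, where 5.93% of all genes were; at an unadjusted p under 0.05 Psmb5 and Psma6 were higher, against 12.6% of all genes, and DESeq2 called Psmb5, against 7.66% of all genes. The log2 fold changes of all 46 lay between -0.61 and 0.45, so no member differed by 2-fold. Their median was -0.11 against 0.01 over all genes tested, with 32 members negative and 14 positive. On library totals in place of TMM, where the median of all genes was -0.31, 44 were negative and only Psmb5 and Psma6 positive, at 0.13 and 0.05. The counts of calls, of members and of all genes, rest on all 6 libraries. With a library left out, 0 to 2 members were called lower. Over all genes 372 to 565 of 15379 to 15654 tested were then called lower, in place of 889 of 14797.

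**Figure D1:**
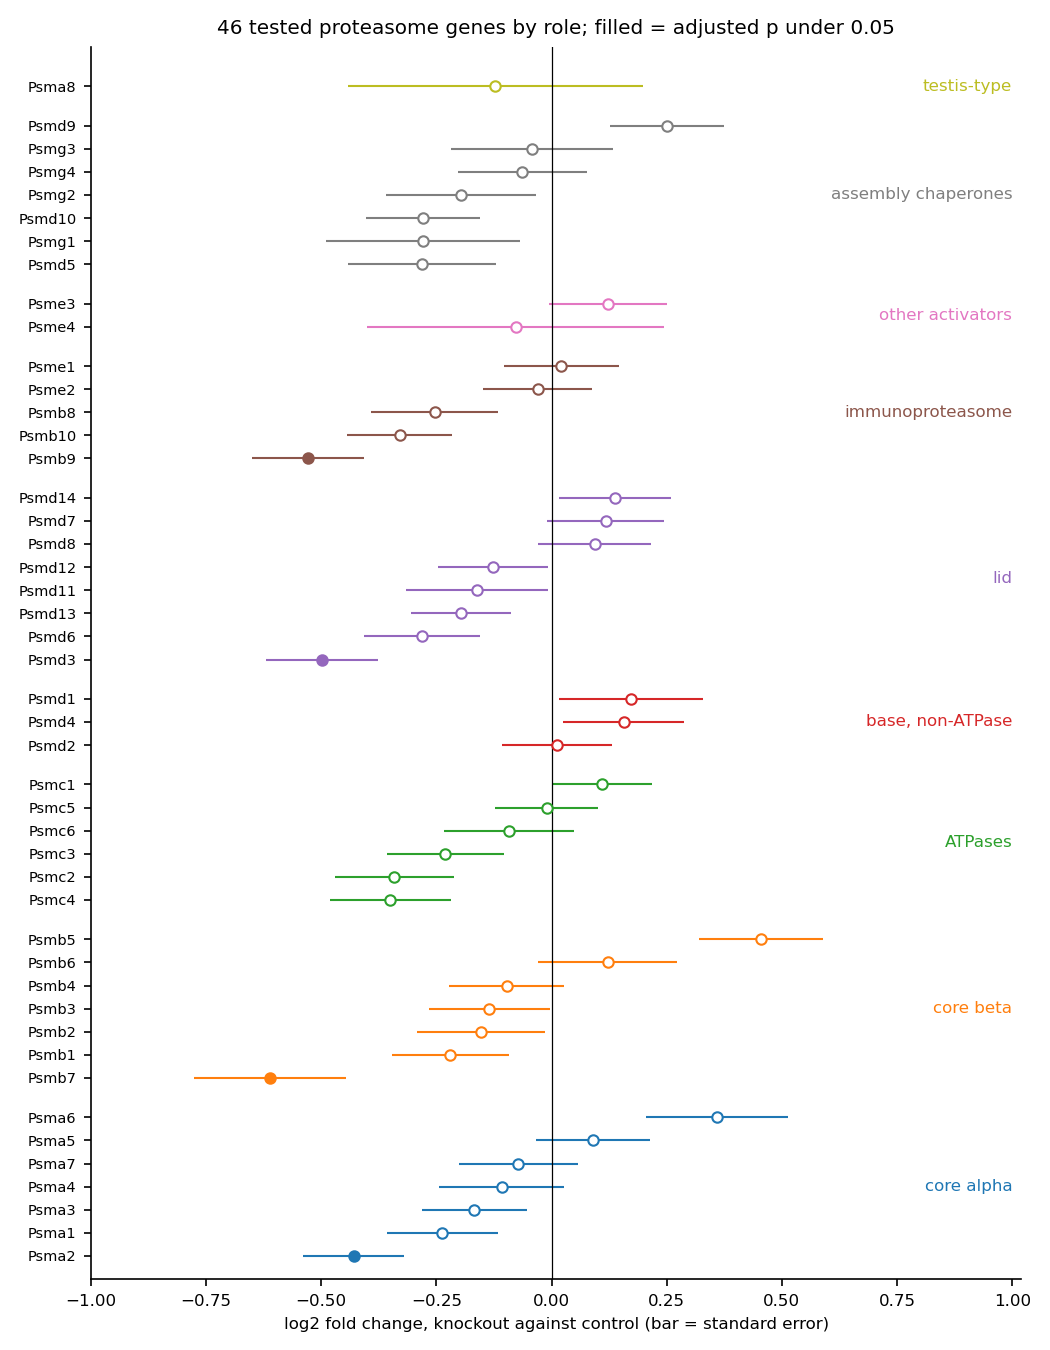
Log2 fold change in knockout against control (x axis, bar = standard error) of the 46 tested proteasome genes, grouped by role on the y axis. Filled points passed the edgeR test at an adjusted p under 0.05; they are Psma2, Psmb7, Psmd3 and Psmb9, all negative, and Psmb5 has the highest value at 0.45.

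Of the 5 immunoproteasome genes 1 fell, Psmb9, against 6.01% of all genes, and the other 4 did not pass the test. The beta subunit genes Psmb9, Psmb10 and Psmb8 had log2 fold changes of -0.53, -0.33 and -0.25, whereas the activator genes Psme1 and Psme2 stood at 0.02 and -0.03. The median of the 5 was -0.25, beside -0.11 for the 31 constitutive subunits and 0.01 for all genes; the difference between the lists was not tested.

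Psmb9 (ENSMUSG00000096727) encodes the inducible partner of Psmb6 and lies on chromosome 17 at 34181987 to 34187764 of GRCm38 on the minus strand, per the deposited table. Its control libraries, here and below in the order of replicates 1, 2 and 3, had 34.1, 31.7 and 29.99 CPM, and its knockout libraries 21.7, 22.8 and 21.9 CPM. The groups did not overlap, and the knockout libraries lay within a narrow range. The means were 31.9 ± 2.07 and 22.1 ± 0.603 CPM (SD, n = 3 per group), a log2 fold change of -0.53 with a standard error of 0.122 (edgeR adjusted p = 0.0188). The call was lost without control replicate 1 or 2 or knockout replicate 1, 2 or 3 (edgeR adjusted p = 0.0890, 0.0607, 0.0636, 0.0509 and 0.0557) and held without control replicate 3 (0.0298). Psmb9 shares 5.79% of its exon bases with the opposite-strand peptide transporter gene Tap1 in GENCODE M21, and reads there cannot be parted where counting ignores strand.

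Psmb8 (ENSMUSG00000024338), the inducible partner of Psmb5, lies on the same chromosome at 34197721 to 34201454 on the plus strand. It stood at 220.2, 207 and 186 CPM in control and at 196, 167 and 151 CPM in knockout. Knockout replicate 1 lay above control replicate 3, so the groups overlapped, with a log2 fold change of -0.25 ± 0.139 (standard error, edgeR adjusted p = 0.290). Psmb10 (ENSMUSG00000031897), the inducible partner of Psmb7, lies on chromosome 8 at 105935735 to 105938104 on the minus strand. It stood at 196, 197 and 187 CPM in control and at 159, 153 and 149 CPM in knockout. Every knockout library of Psmb10 lay below every control library, with a log2 fold change of -0.33 and a standard error of 0.114 (edgeR adjusted p = 0.0917; DESeq2 adjusted p = 0.0243). Its call thus depended on the tool.

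Psme1 and Psme2 encode the alpha and beta subunits of the interferon-inducible activator ring and lie 5913 bases apart on chromosome 14. Psme1 stood at 185, 177 and 176 CPM in control and at 201, 182 and 163 CPM in knockout. Psme2 stood at 140.3, 151 and 138 CPM in control and at 145, 146 and 128 CPM in knockout. For both genes the groups overlapped, with standard errors of 0.125 and 0.118 on the log2 scale (edgeR adjusted p = 0.945 and 0.916). The signs of these values near 0 changed with the scaling: on library totals Psme1 was at -0.31. Psme2 shares 28.3% of its 50-base stretches with other annotated genes, chiefly its near-identical copy Psme2b, which stood at 31.3 to 39.0 CPM over the 6 libraries, and how the counting divided reads between the pair is uncertain.

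**Figure D2:**
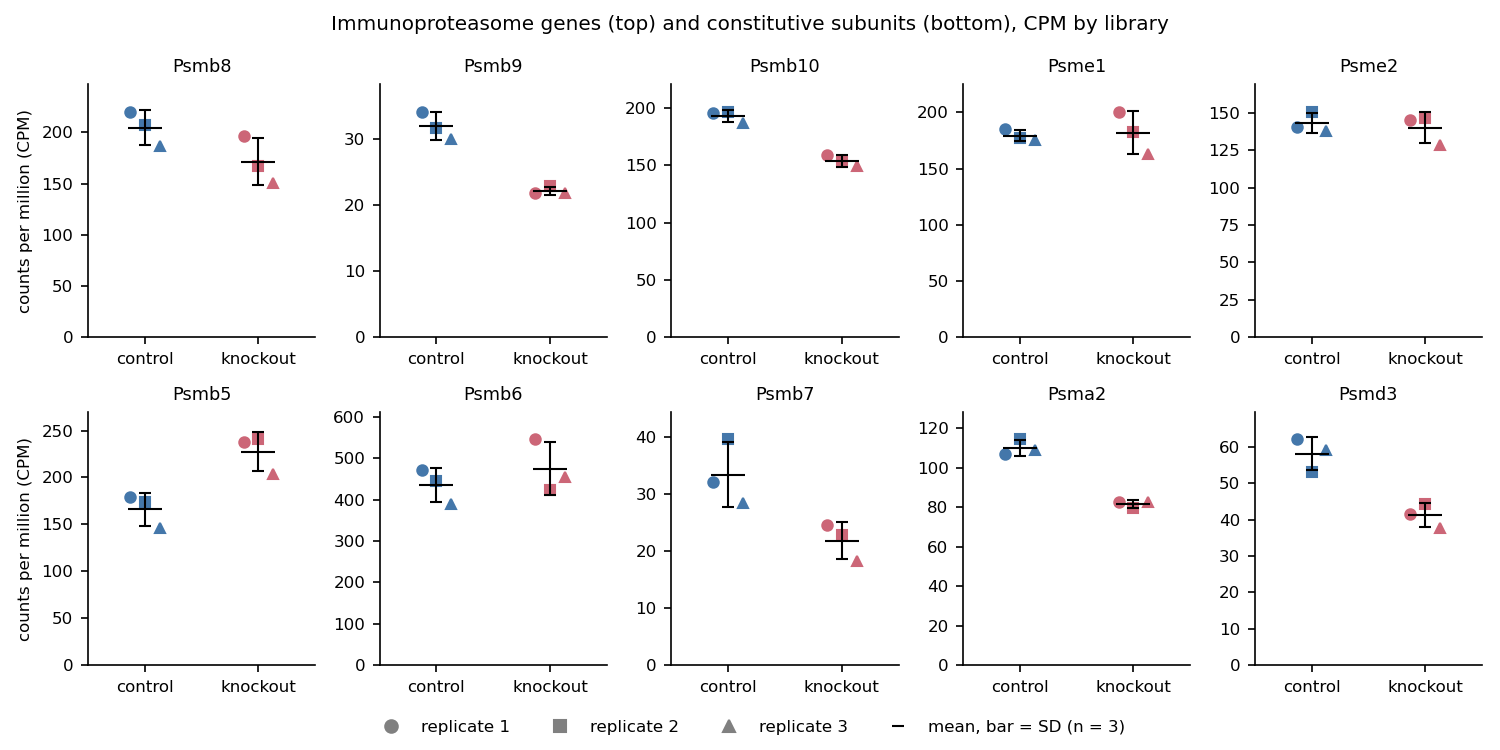
CPM (y axis, from 0) of the 5 immunoproteasome genes in the top row and of 5 constitutive subunit genes in the bottom row, by group. Each symbol is a library and the bar is the mean ± SD of 3; Psmb9, Psmb10, Psmb7, Psma2 and Psmd3 have all knockout libraries below all control libraries, Psmb5 has them above, and the other 4 genes overlap.

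The constitutive catalytic genes did not move together. Psmb5 (ENSMUSG00000022193, chromosome 14, 54614119 to 54618022, minus strand) encodes the subunit that cuts after large hydrophobic residues. It stood at 179, 174 and 146 CPM in control and at 238, 241 and 204 CPM in knockout. All 3 knockout libraries lay above all 3 control libraries, and its log2 fold change of 0.45, with a standard error of 0.135, narrowly missed the threshold (edgeR adjusted p = 0.0527). It passed with DESeq2 (adjusted p = 0.01), with the replicate number as a block (edgeR adjusted p = 0.0380), with a minimum mean count of 100 (0.0319) and with counts divided by 4 (0.0385), whereas its log2 fold change was 0.13 on library totals (edgeR adjusted p = 0.715). Psmb5 shares 54.1% of its 50-base stretches with other annotated genes, mainly the pseudogene Gm3375.

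Psmb6 (ENSMUSG00000018286, chromosome 11, 70525367 to 70527858, plus strand) encodes the subunit that cuts after acidic residues. It stood at 473, 445 and 391 CPM in control and at 546, 423 and 455 CPM in knockout. The groups overlapped (log2 fold change 0.12, standard error 0.151, edgeR adjusted p = 0.683; -0.19 on library totals). Psmb7 (ENSMUSG00000026750, chromosome 2, 38588036 to 38644087, minus strand) encodes the subunit that cuts after basic residues. It stood at 32.0, 39.6 and 28.4 CPM in control and at 24.6, 22.8 and 18.2 CPM in knockout. The knockout libraries were all lower, and the log2 fold change of -0.61 ± 0.165 (standard error, edgeR adjusted p = 0.0365) was the lowest of the 46 members. The call was lost without control replicate 1 or 2 or knockout replicate 1, 2 or 3 (edgeR adjusted p = 0.0927, 0.143, 0.0561, 0.0880 and 0.116). On all 6 libraries it was lost with upper-quartile factors (edgeR adjusted p = 0.0570) and with limma on size-factor-scaled FPKM (adjusted p = 0.0682), and 11.8% of its exon bases overlap the opposite-strand gene Nek6.

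To show what letters lie before the genes of the pairs whose ratio differed most, the 250 bases before the RefSeq starts of Psmb5 (chr14:54617996-54618245, minus strand) and Psmb6 (chr11:70525107-70525356, plus strand) are printed from GRCm38.p6. For Psmb8 (chr17:34198088-34198117, plus strand), Psmb9 (chr17:34187321-34187350, minus strand) and Psme1 (chr14:55578493-55578522, plus strand), 30 bases around a match are given. Capitals mark matches to the antioxidant response core TGACNNNGC, through which NFE2L1 and NFE2L2 are known to act, in Psmb5 and Psmb6, to the STAT-type motif TTCNNNGAA in Psmb8, to the interferon-stimulated response element, on the reverse strand, in Psme1, and to CCAAT, on the reverse strand, in Psmb9.
Psmb5: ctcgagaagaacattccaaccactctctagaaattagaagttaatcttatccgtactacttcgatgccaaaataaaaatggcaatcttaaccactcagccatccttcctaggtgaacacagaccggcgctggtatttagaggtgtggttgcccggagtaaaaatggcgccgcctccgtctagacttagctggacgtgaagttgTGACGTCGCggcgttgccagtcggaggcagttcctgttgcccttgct
Psmb6: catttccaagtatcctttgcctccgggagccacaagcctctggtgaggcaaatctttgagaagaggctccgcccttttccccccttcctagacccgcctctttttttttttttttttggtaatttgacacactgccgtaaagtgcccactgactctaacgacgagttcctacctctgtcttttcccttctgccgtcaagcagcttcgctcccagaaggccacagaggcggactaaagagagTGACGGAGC
Psmb8: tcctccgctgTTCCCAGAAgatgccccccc
Psmb9: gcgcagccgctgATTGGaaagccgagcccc
Psme1: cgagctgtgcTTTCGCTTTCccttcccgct

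These motifs were searched on both strands in windows from 250 bases before to 50 after each RefSeq start, which were at hand for 39 of the 47 members in 42 windows. TGACNNNGC was found in 14.3% of the member windows and in 12.4% of all 32851 windows, and the members that held it were Psmb5, Psmb6, Psmc6, Psmd9, Psmd12 and Psme4. TTCNNNGAA was found in 7.14% of member windows and 8.30% of all windows, and the interferon-stimulated response element in 11.9% and 3.44%. The members that held the latter were Psmb3, Psmd4, Psmd9, Psme1 and Psmg4, and only 1 of the 6 windows of immunoproteasome genes held it. CCAAT was found in 33.3% of member windows and 37.4% of all windows, and the GC box GGGCGG in 57.1% and 35.7%. An NF-kappaB-type motif was found in 54.8% and 50.8%. Matches to different motifs could overlap and were all kept. A match is a description of letters and not a site.

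The balance between each immunoproteasome subunit and the constitutive subunit it replaces was read as a ratio of FPKM within a library, which needs no scaling between libraries. Psmb8 stood at 0.328, 0.317 and 0.339 of the FPKM of Psmb5 in control and at 0.219, 0.185 and 0.196 of it in knockout. Every knockout ratio was lower than every control ratio, by 1.64-fold in the mean (log2 means -1.61 ± 0.0485 and -2.33 ± 0.124, SD, n = 3 per group, 2-sided exact permutation p = 0.1, the smallest that 3 against 3 allows). Expressed as a share, Psmb8 was 24.1% to 25.3% of the pair in control and 15.6% to 17.97% in knockout. The sizes of all these ratios and shares depend on the annotated exon bases by which FPKM divides, 3381 for Psmb8 and 899 for Psmb5. Only the fold of a ratio between the groups is free of these lengths. Psmb8 also shares 14.7% of its exon bases with the opposite-strand gene Gm20496, and Psmb5 54.1% of its 50-base stretches with other annotated genes. The part of this sharing in the ratio was not tested. The ratio of Psmb9 to Psmb6 was 0.0369, 0.0364 and 0.0392 in control and 0.0203, 0.0275 and 0.0245 in knockout. These groups did not overlap either, with a 1.56-fold lower mean in knockout (exact permutation p = 0.1). The ratio of Psmb10 to Psmb7 was 12.3, 9.98 and 13.2 in control and 13.01, 13.5 and 16.5 in knockout. Here the groups overlapped and the difference pointed the other way (log2 difference 0.28, exact permutation p = 0.2). Adjusted over the 3 ratios, the exact permutation p-values were 0.15, 0.15 and 0.2, so no ratio could pass a threshold of 0.05 in this design. In the first pair the mean CPM of Psmb8 was lower and that of Psmb5 higher, in the second Psmb9 fell while Psmb6 overlapped, and in the third the CPM of both genes was lower in every knockout library.

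**Figure D3:**
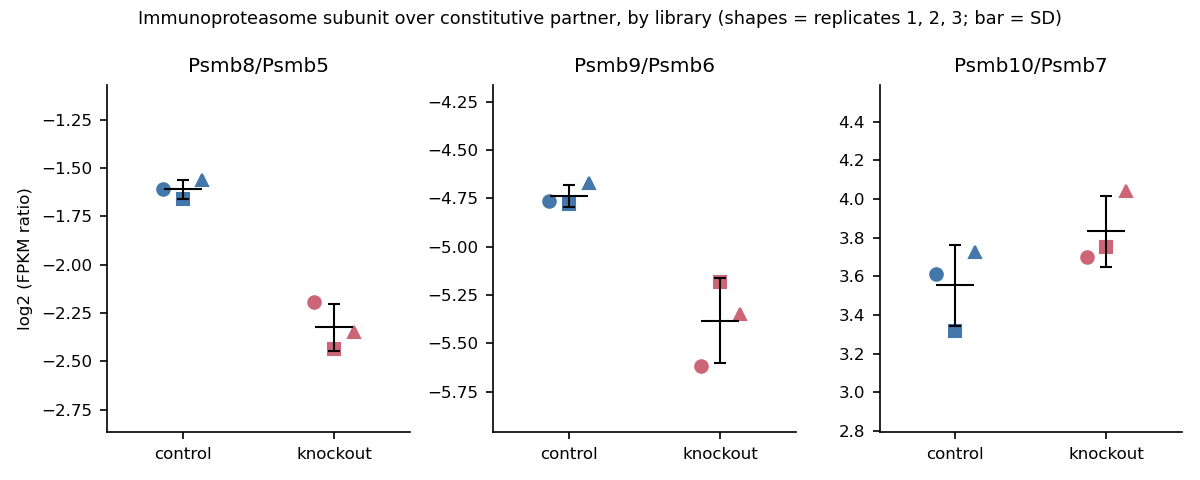
Log2 of the FPKM ratio of each immunoproteasome subunit to its constitutive partner (y axis, each panel spanning the same log2 range), by group. Each symbol is a library and the bar is the mean ± SD of 3; Psmb8/Psmb5 and Psmb9/Psmb6 are lower in all knockout libraries and Psmb10/Psmb7 overlaps.

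Among the 7 core alpha genes, which form the outer rings and the gate of the barrel, 1 fell, against 6.01% of all genes. The other 6 did not pass the test, and the median log2 fold change of the 7 was -0.11. Psma2 (ENSMUSG00000015671, chromosome 13, 14613240 to 14674236, plus strand) stood at 107, 114 and 109 CPM in control and at 82.8, 79.6 and 82.9 CPM in knockout. Its replicates were close in both groups and did not overlap (110.1 ± 3.90 and 81.7 ± 1.89 CPM, SD, n = 3 per group; log2 fold change -0.43, standard error 0.109, edgeR adjusted p = 0.0281). The call of Psma2 was lost without any single library (edgeR adjusted p = 0.0519 to 0.0971), while the log2 fold change stayed at -0.46 to -0.40. Psma6 had the highest log2 fold change of these genes, and stood at 211, 216 and 164 CPM in control and 292, 225 and 240.4 CPM in knockout, without overlap (0.36, edgeR adjusted p = 0.175). Apart from the catalytic genes, the beta genes Psmb1, Psmb2, Psmb3 and Psmb4 had log2 fold changes of -0.22 to -0.10 and none passed the test.

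None of the 6 ATPase genes, whose products unfold substrates and open the gate, was called higher or lower by edgeR, and their median log2 fold change was -0.16. At an unadjusted p under 0.05, Psmc4 and Psmc2 were lower, against 12.8% of all genes. DESeq2 called no ATPase gene either, against 8.03% of all genes called lower by it. Psmc4 stood at 119.9, 119 and 148 CPM in control and at 110.1, 93.6 and 99.8 CPM in knockout (log2 fold change -0.35, edgeR adjusted p = 0.122). Psmc2 stood at 85.4, 92.7 and 92.7 CPM in control and at 77.3, 75.9 and 60.6 CPM in knockout (-0.34, edgeR adjusted p = 0.121). For both genes the groups did not overlap, but the difference did not pass the test.

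The non-ATPase base genes Psmd1 and Psmd2, which encode the large scaffold subunits, and Psmd4, which encodes a ubiquitin receptor, had log2 fold changes of 0.01 to 0.17. They were negative on library totals, at -0.30 to -0.12, and none of the 3 passed the edgeR test, also at an unadjusted p under 0.05 or with DESeq2. Of the 8 lid genes, whose products carry out deubiquitination and hold the particle together, 1 fell, against 6.01% of all genes. Psmd3 (ENSMUSG00000017221, chromosome 11, 98682554 to 98695979, plus strand), a scaffold subunit of the lid, stood at 62.1, 53.1 and 59.2 CPM in control and at 41.4, 44.4 and 37.7 CPM in knockout. No knockout library reached a control library (58.1 ± 4.58 and 41.2 ± 3.33 CPM, SD, n = 3 per group; log2 fold change -0.50, standard error 0.121, edgeR adjusted p = 0.0234). Leaving out control replicate 1 or 3, or knockout replicate 1 or 3, ended the call of Psmd3 (edgeR adjusted p = 0.110, 0.0565, 0.0775 and 0.0799). Psmd14, which encodes the deubiquitinase of the lid, had a log2 fold change of 0.14 (edgeR adjusted p = 0.543; -0.18 on library totals), and the 7 lid genes other than Psmd3 spanned -0.28 to 0.14.

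None of the 7 assembly chaperone genes was called by edgeR, with log2 fold changes from -0.28 for Psmd5 to 0.25 for Psmd9, which was at -0.06 on library totals. At an unadjusted p under 0.05 Psmd10 was lower, against 12.8% of all genes, and DESeq2 called 0 of the 7. Psmd9 shares 25.5% of its exon bases with the opposite-strand gene Gm26745. Of the other activators, Psme3, which encodes a nuclear activator ring, was at 0.12 (-0.19 on library totals) and Psme4, which encodes a large single-chain activator, at -0.08, with edgeR adjusted p-values of 0.620 and 0.920. Psma8, known as a testis-type alpha subunit, had 1.82 to 3.55 CPM over the 6 libraries (log2 fold change -0.12, edgeR adjusted p = 0.868). Psmb11, the catalytic subunit of thymus epithelium, was at 0 in 5 libraries and at 0.0466 CPM in control replicate 3, and was not tested.

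The FPKM of the subunit genes spanned a wide range. FPKM divides by annotated exon bases, which were 7265 for Psmd1, 3660 for Psmb9, 3421 for Psmb7 and 899 for Psmb5. Their part in the range and order was not tested. Among the 31 constitutive subunits the control mean ran from 7.48 ± 1.57 FPKM for Psmd1 to 246 ± 14.5 FPKM for Psmb6 (SD, n = 3). The catalytic genes Psmb6 and Psmb5 were near the top, at 246 ± 14.5 and 195 ± 12.4 FPKM, and Psmb7 near the bottom, at 10.3 ± 1.84 FPKM. Psmb6 stood at 229, 250.3 and 257 FPKM in control and at 224, 172 and 249 FPKM in knockout. Of the 30 pairs of neighbours in the control order, 24 overlapped in their ranges, so most of that order was not resolved by 3 libraries. Among the immunoproteasome genes the order in control was Psmb10 at 120.4 ± 15.6 FPKM, then Psme2 and Psme1, which overlapped, at 86.1 ± 12.5 and 86.1 ± 11.1 FPKM, Psmb8 at 63.8 ± 4.37 FPKM and Psmb9 at 9.21 ± 0.821 FPKM. In knockout the order of means was Psmb10 at 76.6 ± 11.7, Psme1 at 69.4 ± 6.54, Psme2 at 67.0 ± 6.60, Psmb8 at 42.7 ± 4.41 and Psmb9 at 5.13 ± 0.855 FPKM. Psmb10, Psme1 and Psme2 overlapped in the knockout libraries, while Psmb9 lay well under the rest in both groups.

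**Figure D4:**
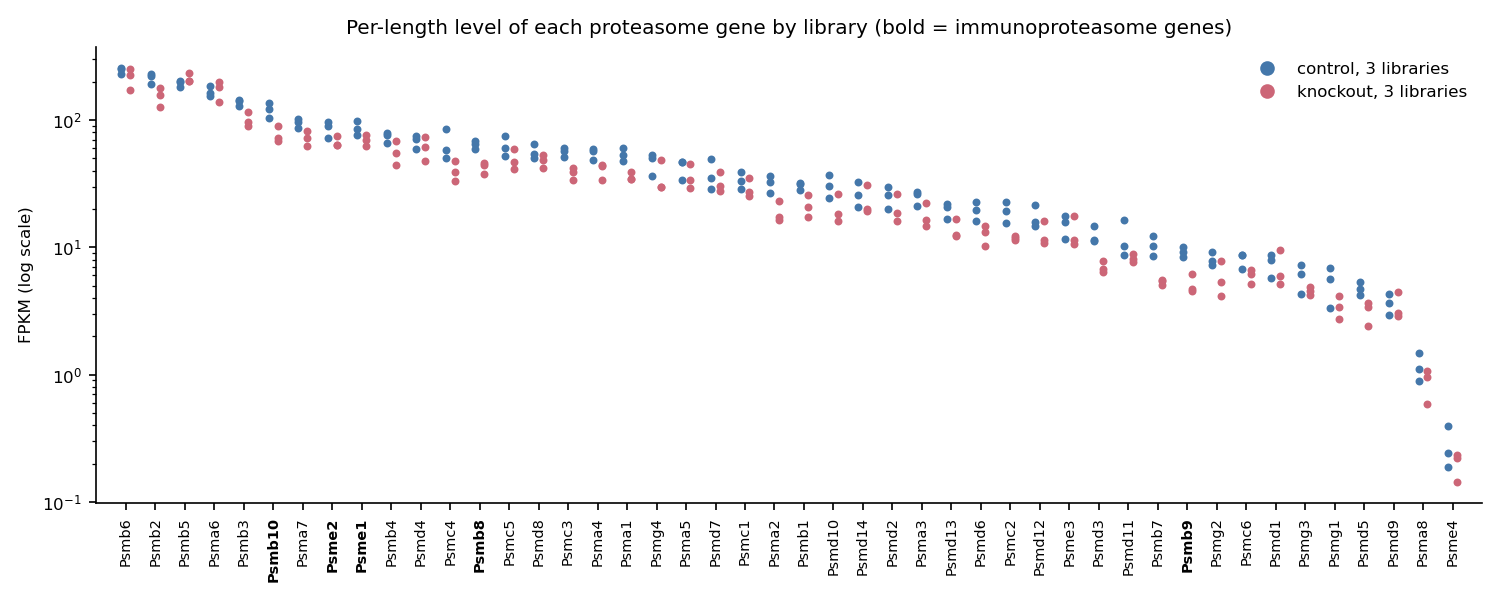
FPKM as deposited (y axis, log scale) of 46 proteasome genes ordered by their control mean, with 3 control and 3 knockout libraries each. Psmb6 is at the top with a control mean of 246 FPKM, Psmb9 and Psmb7 lie near 10.3 FPKM or below, and Psma8 and Psme4 are the lowest of those shown; deposited FPKM carries no TMM scaling, and knockout points mostly sit below control points.

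Library by library, the lists did not shift evenly. The median log2 CPM of the 31 constitutive subunits against the control mean was 0.02, -0.14 and -0.16 for knockout, in replicate order, and -0.07 to 0.04 for the control libraries. For the 5 immunoproteasome genes it was -0.06, -0.28 and -0.37 for knockout and -0.05 to 0.05 for control. Knockout replicate 1 thus lay close to or within the control range for both lists. The summed level of the constitutive genes was 3695 to 3993 CPM in control and 3635 to 4145 CPM in knockout, which overlap, and that of the immunoproteasome genes was 717 to 775 CPM in control and 613 to 724 CPM in knockout, which overlap as well. CPM of the groups did not overlap for 16 members, or 34.8% of those tested against 31.2% of all genes. Knockout was below control for 12 of them, against 15.9% of all genes, and above it for 4, against 15.3%.

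**Figure D5:**
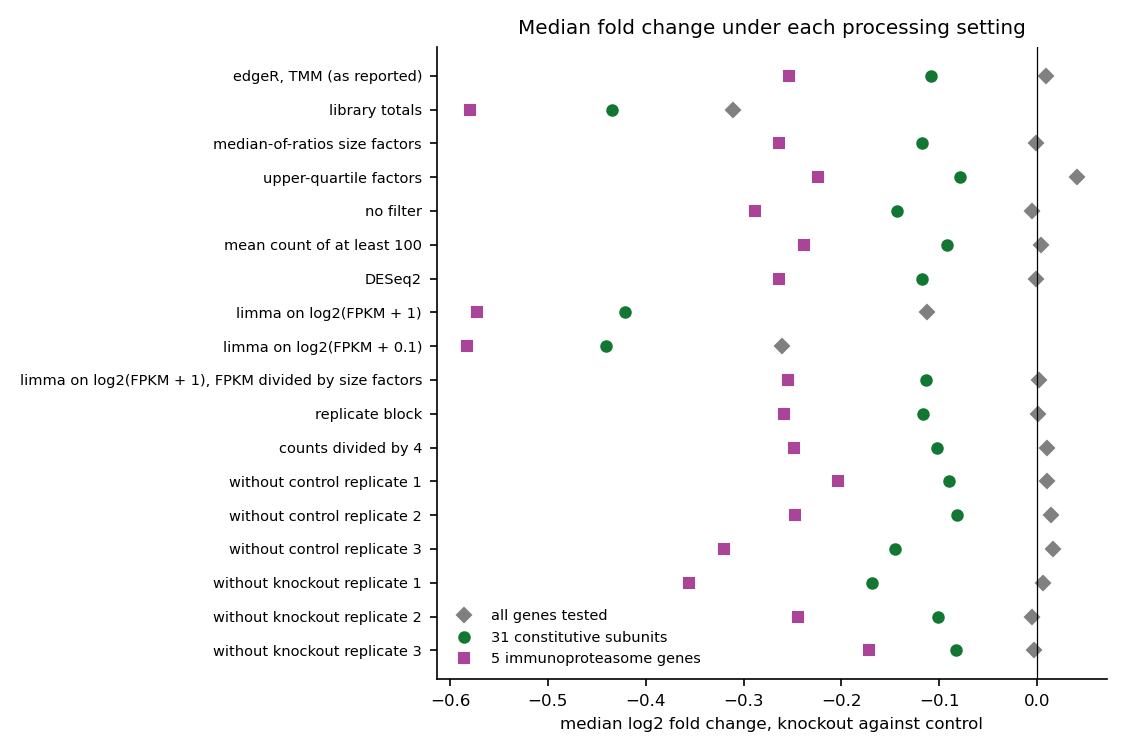
Median log2 fold change (x axis) of the 31 constitutive subunits, the 5 immunoproteasome genes and all genes tested, under the reported fit and 17 alternatives (y axis). The immunoproteasome median lies left of the constitutive median, and both lie left of all genes, in each setting shown; with TMM they are -0.25, -0.11 and 0.01, and on library totals -0.58, -0.43 and -0.31.

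The scaling set the absolute size of these differences. On library totals in place of TMM the median of all genes moved by 0.32 on the log2 scale, to -0.31. The constitutive and immunoproteasome medians then stood at -0.43 and -0.58, and the same 4 genes, Psma2, Psmb7, Psmb9 and Psmd3, were the members called. Relative to the median of all genes, the constitutive median was -0.12 with either scaling, and the immunoproteasome median was -0.26 with TMM and -0.27 on library totals. These gaps were -0.31 and -0.46 with limma on log2(FPKM + 1), where the median of all genes was -0.11. On log2(FPKM + 0.1), where that median was -0.26, the gaps were -0.18 and -0.32. With a library left out they ran from -0.17, without knockout replicate 1, to -0.08, without knockout replicate 3, for the constitutive genes, and from -0.36 to -0.17, without the same libraries, for the immunoproteasome genes.

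Most genes that work with the proteasome were not called. At an unadjusted p under 0.05, 1 of 12 tested partners outside the name rule was higher and 2 lower, against 12.6% and 12.8% of all genes. Of these 12 partners 0 rose by edgeR or DESeq2, and 1 fell by edgeR, against 6.01% of all genes. The one that fell was Sem1, a small subunit of the lid, at 168, 202 and 140.1 CPM in control and 106, 118 and 109 CPM in knockout. Its groups did not overlap (log2 fold change -0.61, standard error 0.147, edgeR adjusted p = 0.0221), and the call held only without control replicate 3 when a library was left out. Pomp, the maturation factor of the core, was at 0.24 (edgeR adjusted p = 0.421). Of 14 ubiquitin supply and shuttle genes 0 passed the edgeR test in either direction, against 11.9% of all genes, with a median of 0.16. In that list 4 of 14 were higher at an unadjusted p under 0.05, against 12.6% of all genes, and DESeq2 called 2 of 14 higher, against 7.66%, among them Sqstm1, an autophagy receptor gene, at 0.55 (edgeR adjusted p = 0.0556). The polyubiquitin gene Ubb was at 0.08 (edgeR adjusted p = 0.909).

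Of 12 genes around NFE2L1, the transcription factor that raises proteasome genes when the protease is short, 1 rose and 1 fell by edgeR. The shares of all genes were 5.93% and 6.01%. DESeq2 called 2 higher (Nfe2l1 and Nfe2l2) and 3 lower (Maff, Sel1l and Ufd1), against 7.66% and 8.03% of all genes. At an unadjusted p under 0.05, 3 were higher and 4 lower, against 12.6% and 12.8% of all genes. Nfe2l2, which encodes the related factor of the antioxidant response, stood at 82.4, 73.8 and 85.6 CPM in control and 110.0, 104 and 117 CPM in knockout. The groups did not overlap (log2 fold change 0.45, edgeR adjusted p = 0.0315; 0.14 and edgeR adjusted p = 0.772 on library totals). With a library left out, Nfe2l2 kept its call only without control replicate 3. Maff, which encodes a small partner of these factors, fell, with means of 23.1 ± 6.07 and 11.8 ± 1.68 CPM (SD, n = 3 in each; log2 fold change -0.97, edgeR adjusted p = 0.0111), and it lost its call without control replicate 1 (0.0503). Nfe2l1 itself stood at 12.9, 14.1 and 7.84 CPM in control and 17.5, 22.5 and 17.5 CPM in knockout, without overlap (0.73, edgeR adjusted p = 0.0539).

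The genes that carry proteasome products to class I molecules, and the interferon pathway that induces the immunoproteasome, had a median absolute log2 fold change of 0.42 and 0.43, beside 0.16 for the proteasome genes and 0.34 for all genes. Of 12 class I peptide loading genes 2 rose and 1 fell by edgeR, against 5.93% and 6.01% of all genes. H2-K1, a class I heavy chain gene, stood at 966, 775 and 712 CPM in control and 1698, 2265 and 1219 CPM in knockout (log2 fold change 1.08, edgeR adjusted p = 0.0136). All its knockout libraries were higher, and leaving out control replicate 2 or 3, or the knockout library 2, ended the call (edgeR adjusted p = 0.0641, 0.0534 and 0.0519). B2m, the light chain gene, rose, with means of 3095 ± 759 and 5633 ± 1182 CPM (SD, n = 3 in each; 0.86, edgeR adjusted p = 0.0479), and Pdia3, a chaperone of the loading complex, fell, with means of 639.9 ± 89.9 and 414 ± 64.0 CPM (-0.63, edgeR adjusted p = 0.0350). B2m kept its call only without knockout replicate 3 when a library was left out, and Pdia3 only without control replicate 3 or knockout replicate 1. With upper-quartile factors neither was called (edgeR adjusted p = 0.0754 for B2m and 0.0677 for Pdia3), and B2m was also lost with median-of-ratios size factors, a mean count minimum of 100 and counts divided by 4 (edgeR adjusted p = 0.05, 0.0564 and 0.0526). Tap1 and Tap2, the peptide transporter genes that flank Psmb8, were at 0.41 and -0.34 (edgeR adjusted p = 0.208 and 0.237). On chromosome 17, the overlapping neighbours Psmb9 and Tap1 thus had fold changes of opposite sign, of which that of Tap1 did not pass the test.

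Of 14 interferon signalling genes 3 rose and 2 fell by edgeR, against 5.93% and 6.01% of all genes. Ifngr1, the ligand-binding chain of the interferon-gamma receptor, fell from 129, 122 and 114 CPM in control to 53.3, 50.2 and 51.6 CPM in knockout (log2 fold change -1.23, standard error 0.114, edgeR adjusted p = 0.000115), and the call held without any single library. Irf1, a transcription factor known to induce immunoproteasome genes, stood at 18.9, 16.2 and 19.8 CPM in control and 12.6, 13.9 and 12.3 CPM in knockout. It fell (-0.50, edgeR adjusted p = 0.0441), and the call was lost without any single library (edgeR adjusted p = 0.0568 to 0.141). Ifnar2, a chain of the type I interferon receptor, rose, with means of 37.7 ± 2.25 and 59.0 ± 2.47 CPM (SD, n = 3 in each; 0.64, edgeR adjusted p = 0.00507). Irf7 had 9.28, 33.3 and 9.67 CPM in the knockout libraries and 4.73 to 6.08 CPM in control (1.65, edgeR adjusted p = 0.0307). Knockout replicate 2 stood apart, and without it the log2 fold change was 0.76 (edgeR adjusted p = 0.0462). The call of Irf7 was lost without any of the control replicates (edgeR adjusted p = 0.0877 to 0.113) and with DESeq2 (adjusted p = 0.0515). On library totals Ifnar2, Irf7 and Irf1 were not called (edgeR adjusted p = 0.450, 0.0573 and 0.0699).

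The 47 genes were spread over 16 chromosomes. Chromosome 11 held 8 of them and chromosome 14 held 6, among them Psmb5, Psme1 and Psme2. Of the members, 19 shared no 50-base stretch with another gene in GENCODE M21, and 10 shared more than 10% of theirs. Exon bases overlapped a gene on the opposite strand for 11 members.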

How the data were processed

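RNA-seq libraries of mouse lung alveolar macrophages, 3 control and 3 knockout, were made from TRIzol RNA with the NEBNext Ultra kit, as the labels' protocols state. The authors deposited estimated counts and FPKM per gene, and GRCm38, cutadapt, FastQC, HISAT2, StringTie, DESeq2 and edgeR are named in the submitters' processing notes without versions or roles. The deposited counts were whole numbers and entered the tests as they stood; how many count units a read pair gives, and whether counting used strand, was not given in these sources. Totals were 51894849 to 66163430 count units per library, which do not give a number of reads.

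The main test was edgeR 4.0.16 (quasi-likelihood, TMM, default expression filter, 14797 of 26428 genes, Benjamini-Hochberg adjustment at 0.05), fitted over all genes with no covariate. The fit was also run on simulated data, which does not test the calls reported here. Log2 fold changes are knockout against control. Alternatives were other scalings and filters, DESeq2 1.42.0, limma 3.58.1 on log2(FPKM + 1) and log2(FPKM + 0.1), a replicate block, counts divided by 4 and leaving out each library. Ratios of deposited FPKM were compared with a 2-sided exact permutation test. Shared 50-base stretches and exon overlaps came from GENCODE M21, and promoter sequences from RefSeq (GRCm38.p6). The genes named with values per library were the immunoproteasome genes, their catalytic partners, members that passed the test, the highest member in FPKM and part of the genes of other lists that passed. Of those, Maff, B2m, Pdia3 and Ifnar2 were given as group means. Further genes were chosen after their values were seen. Members and lists were chosen with earlier results of these data known. Paaf1 was not analysed here, and values of 2 further list genes are not reported here.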

Additional observations from a re-analysis of the deposited data

How the results depend on the processing

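Across the alternatives, Psma2, Psmb7, Psmb9 and Psmd3 stayed lower in direction. The catalytic ratios were run again only with counts, with 1 added to each FPKM and with a library left out, and none reversed. Counts in place of FPKM could not move the difference between groups, because the length of a gene is the same in every library. Genes called higher in knockout numbered 878 with TMM, 290 on library totals and, in limma, 130 on log2(FPKM + 1) and 198 on log2(FPKM + 0.1), and genes called lower 889 and, on log2(FPKM + 0.1), 505. The last setting called 0 proteasome genes lower in limma, in place of 4, and Psma2 had an adjusted p of 0.118 there. On log2(FPKM + 1) limma called 4 lower, with Psmb8 (adjusted p = 0.0418) in place of Psma2 (0.0713). On size-factor-scaled FPKM it called 4 lower, with Psmb10 (adjusted p = 0.024) in place of Psmb7 (0.0682). In 4 settings 1 proteasome gene, Psmb5, was called higher, namely DESeq2, the mean count minimum of 100, counts divided by 4 and the replicate block. The constitutive and immunoproteasome medians moved from -0.11 and -0.25 to -0.43 and -0.58 on library totals, -0.42 and -0.57 on log2(FPKM + 1) and -0.44 and -0.58 on log2(FPKM + 0.1), which have no scaling factors. Values near 0 changed sign. Psme1 was at -0.31 on library totals, -0.0138 with no filter, -0.30 and -0.31 on the FPKM scales and, with a library left out, between -0.0544 (without knockout replicate 1) and 0.0922. Psmb6 was at -0.19 on library totals and -0.21 on both FPKM scales. Psme2 was at 0.0014 with upper-quartile factors, and with a library left out between -0.0712 and 0.0264, above 0 without control replicate 2 (0.0066) or knockout replicate 3. The cause of each was not tested.

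With a library left out, 455 to 691 genes were called higher and 372 to 565 lower, and 0 to 2 proteasome genes lower; with fewer samples the tests also have fewer degrees of freedom. Over all genes, same-numbered libraries of the groups did not deviate together (correlations 0.0276, -0.0398 and 0.000329). Such a correlation cannot show whether they share a batch that touches part of the genes, and this was not tested. The replicate block gave 770 genes higher and 699 lower, with 1 proteasome gene higher and 4 lower. With it the standard error of B2m was 0.127 in place of 0.25, and that of Psmb9 0.129 in place of 0.122. The exact permutation tests of the ratios, with 3 libraries a group, could not go below p = 0.1, and genes with near-identical copies such as Psmb5 and Psme2 carry an uncertainty that depth does not reduce.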
